A study of Rattus norvegicus with 40 samples.

Results

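The endothelin and renin-angiotensin genes were taken as every probe set whose platform annotation names exactly 1 of Edn1, Ednra, Ednrb, Ece1, Agtr1a, Agt and Ace. The rule found 9 of the 8740 probe sets that are not array controls, and these covered 5 of the 7 genes. Agtr1a had 4 of them, Ece1 had 2, and Edn1, Agt and Ace had 1 each. The endothelin receptors Ednra and Ednrb were not analysed here, and 1 probe set that names Ace together with another gene fell outside the rule. A filter that left out the dimmest 33.3% of the probe sets kept 6 of the 9 probe sets, from 3 genes (Ece1, Agtr1a and Ace). The probe sets of Edn1 and Agt and the dimmest of Agtr1a were too weak to be tested and are described only.

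Endothelin-1, the product of Edn1, is a vasoconstrictor peptide that is cut from its precursor by the endothelin-converting enzyme Ece1. Angiotensin II is made from angiotensinogen, the product of Agt, by renin and then by the angiotensin-converting enzyme Ace, and it acts on arteries mainly through the type 1 receptor, which Agtr1a encodes. Both peptides signal through Gq-coupled receptors of smooth muscle, raise intracellular calcium and are known for their roles in contraction and in wall thickening after arterial injury.

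The study measured mRNA of carotid arteries of male Wistar-Kyoto rats aged 3 months on 40 Affymetrix rat genome arrays, each hybridised with RNA from 3 pooled vessels. The left carotid was injured with a balloon catheter and its outer side was covered with plain pluronic gel (left gel) or with gel that delivered tPA, the recombinant plasminogen activator of tissue type, at 20 nmol/kg (left tPA). The uninjured right carotids of rats from these treatments form the groups right gel and right tPA, and all 4 kinds of artery were taken 1 day or 4 days after the operation, with 3 arrays in each of these 8 groups. Left carotids of sham-operated rats gave 4 arrays at day 1 and 6 at day 4, and left carotids of intact rats gave 6. All rats of the gel and tPA groups carried the gel and the injury on the left side, so that the right arteries are not those of untreated animals. The labels do not say whether arrays of the left and right artery with the same number came from the same rats, and p-values measure only the spread between the arrays of a group.

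The tissue label fitted Acta2, the smooth muscle actin gene, which lay between 4835.1 and 13013.7 intensity units over the 40 arrays. Other contractile markers were less uniform. Tpm2 stayed at 1368.8 or above and Tagln fell to 127.5, while Des and Cald1 were dim, with medians of 54.5 and 77.85. Whole vessels were used, so fewer cells of a type and less RNA per cell cannot be told apart in any value given here. All arrays had been scaled alike by the authors, with trimmed means between 500.3 and 500.8. Signs of RNA quality differed between groups: the ratio of the actin control's 3′ to 5′ signal ran from 7.38 to 8.09 in left gel day 4, and from 11.83 to 23.69 in sham day 4. The lowest ratio of all 40 arrays was 2.8, in left tPA day 1 replicate 3.

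4 tPA arrays stood apart from their labels. An injury index was formed as the mean log2 level of 789 probe sets that were higher, minus that of 571 that were lower, with day 4 left gel compared with day 4 sham and no tPA array used. The array labelled left tPA day 1 replicate 2 had an index of -0.06 and left tPA day 4 replicate 1 had -0.56, below the 0.78 to 1.15 and 1.12 to 1.57 of the other left tPA arrays of their days. On the uninjured side, replicate 2 of right tPA day 1 had 1.25 and replicate 1 of right tPA day 4 had 1.01, above the -0.32 to -0.09 and -0.90 to -0.28 of the other right tPA arrays. In the comparisons that follow, a tPA difference of a tested member probe set is also given without these 4 arrays where they move it by 0.1 or more on the log2 scale. Because the index rests on left gel against sham at day 4, such a value is no separate evidence for probe sets that differ there. Comparisons among gel, sham and intact arteries hold none of the 4 arrays. Leaving them out there keeps the difference and alters only the spread that all groups share. A call gained in that way is no separate evidence.

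Among the members, Agtr1a was higher than in sham in injured arteries under plain gel at day 4 and in the uninjured right arteries of gel-treated rats at the same day, by the brightest of its probe sets. On that probe set sham day 4 had the lowest mean of the 11 groups, and the other Agtr1a probe sets did not all follow. Ece1 fell in injured tPA arteries at day 4 by its brighter probe set. Another Agtr1a probe set rose between day 1 and day 4 in both sham and left gel arteries, where the brightest differed by -1.23 (log2) in sham arteries and did not pass (adjusted p = 0.0573 in limma). On arrays scaled to 1 median these outcomes in sham arteries changed places, with adjusted p of 0.0504 for the former and 0.0203 for the latter. Ace passed in 0 of 18 comparisons in limma, with 5 at an unadjusted p below 0.05.

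Over 18 comparisons, 5 of 108 tests of member probe sets passed an adjusted p of 0.05 in limma (4.63%), against 3.35% of the tests of all 5827 probe sets. In left gel against sham at day 4, 1 of 6 member probe sets was higher and 0 lower, where 19.2% of all tested probe sets passed and 11.3% passed as higher. In right gel against sham at day 4, 1 of 6 was higher, beside 8.82% of all probe sets, or 6.23% as higher. In left tPA against sham at day 4, 1 of 6 was lower, beside 5.87% of all, or 1.92% as lower. Between day 4 and day 1, 1 of 6 was higher in left gel arteries, beside 3.21% of all (2.09% higher), and 1 of 6 was higher in sham arteries, beside 5.01% (3.3% higher). Each count is a single probe set, and nothing about the members as a group is read from it.

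In the other 13 comparisons limma called 0 of 6 member probe sets, with 0 to 3 of 6 at an unadjusted p below 0.05. The background was low in most of them as well. At day 1 it was 3.12% of all probe sets for left gel against sham, 4.43% for left tPA against sham and 0.12% for left tPA against left gel. For left against right arteries it was 0.549% under gel and 0.0172% under tPA, and right gel against sham had 0.927% and sham against intact 0.944%. At day 4 it was 0.12% for left tPA against left gel, 5.1% for left gel against right gel, 0.0343% for left tPA against right tPA and 0.378% for sham against intact. The injury difference changed between the days in 2.42% of probe sets, and the tPA difference in 0.0858%.

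The median difference of the 6 member probe sets in left gel against sham was 0.15 on the log2 scale at day 1 and 0.50 at day 4, beside -0.01 and 0.02 over all tested probe sets. For left tPA against left gel the members' median was 0.53 at day 1 and -0.42 at day 4, beside 0.13 and 0.00. Of the 6 probe sets, 3 measure the same gene.

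**Figure D1:**
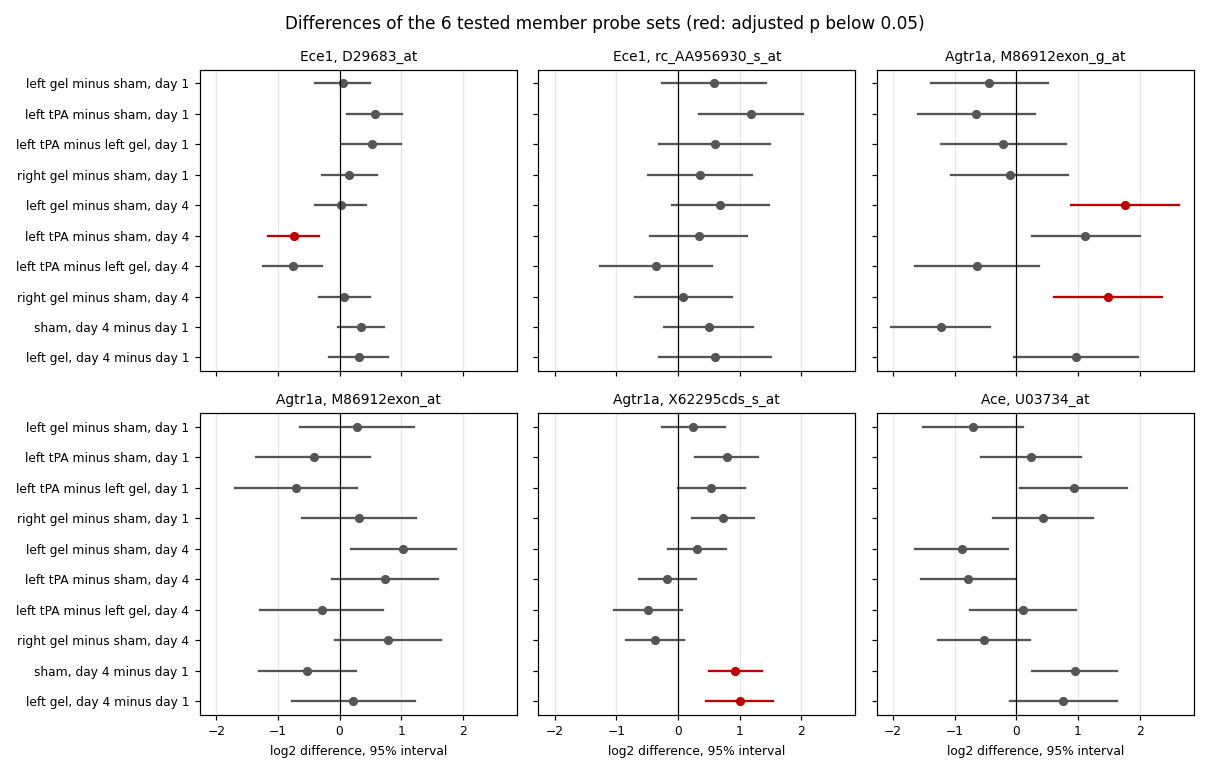
Log2 differences (horizontal axis) of the 6 tested member probe sets in 10 of the comparisons, as points with 95% intervals from limma. The 5 red points passed an adjusted p of 0.05: Ece1 in left tPA against sham at day 4, Agtr1a by its brightest probe set in left gel and right gel against sham at day 4, and Agtr1a by X62295cds_s_at in both courses from day 1 to day 4.

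Edn1, the endothelin-1 precursor gene, was near the floor of 23.3 intensity units on its only probe set (M64711_at). The probe set was at the floor in 18 of 40 arrays and reached 72.2 at most. In sham day 4 arrays its intensity ran from 16.1 to 72.2 with a median of 55.45, the highest group mean, and in intact arrays from 4.1 to 35.1. The left tPA day 4 arrays gave 12, 19.9 and 24.7, the lowest group mean, of which 1 was above the floor. The left gel arrays gave 30.1, 17.4 and 32.7 at day 1 and 7.4, 4 and 40.6 at day 4, so that injured and sham arteries overlapped at both days. When no probe set was left out of the test, limma called Edn1 in 0 of 18 comparisons, with 5 at an unadjusted p below 0.05, and the lowest adjusted p was 0.12, for left tPA against sham at day 4 (log2 difference -0.96, SE 0.35). Every neighbouring pair in the order of the 11 groups overlapped in intensity.

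Agt, which encodes the angiotensin precursor, was also dim on its probe set rc_AA943892_at, with 2 arrays at the floor and a range of 20.1 to 92.2. Its group means were highest in right gel day 1, whose arrays gave 54.1, 36.2 and 92.2. They were lowest in left gel day 1, with 20.9, 37.7 and 29.3, and the 2 groups overlapped. At day 1 the left tPA arrays gave 36.7, 66.7 and 66.4, of which only the first lay within the range of the left gel arrays. Left tPA day 4 arrays were the most alike of any group, at 50.6, 49.7 and 50.5. With no filter, limma called Agt in 0 of 18 comparisons, with 6 at an unadjusted p below 0.05. Its lowest adjusted p was 0.0983, for sham at day 4 against day 1 (log2 difference 0.68, SE 0.24), where the arrays ran from 38 to 80.6 and from 20.1 to 45.6. The next was 0.124, for left gel against right gel at day 1 (-0.94, SE 0.30). Between the sham days, scaling to 1 median moved the median of all probe sets by -0.27. All neighbours in the order of groups overlapped.

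**Figure D2:**
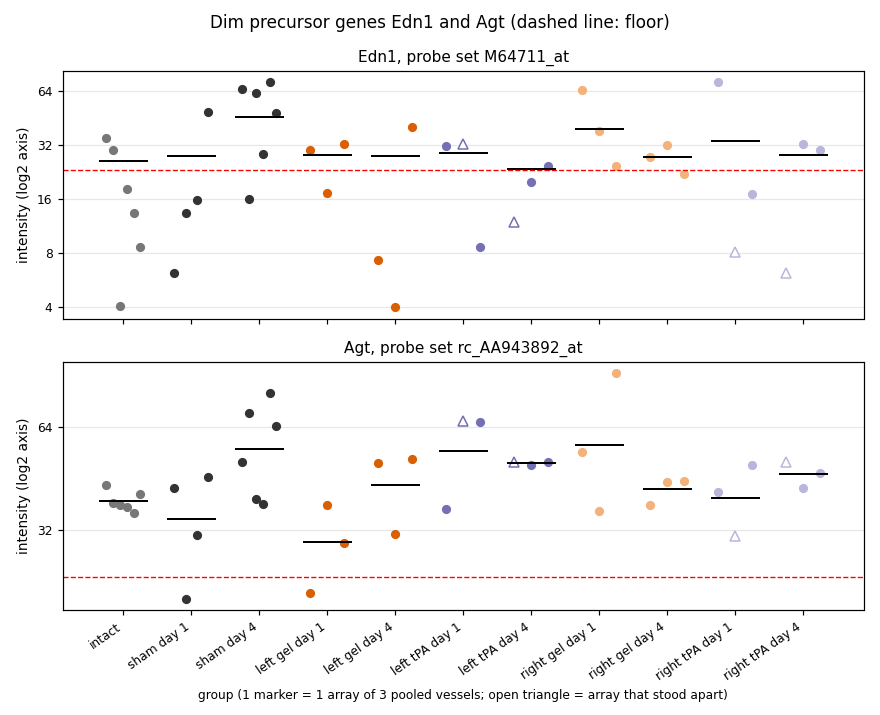
Deposited intensity of the Edn1 and Agt probe sets on a log2 axis in the 11 groups, with 1 marker for each array, open triangles for the 4 tPA arrays that stood apart and black bars for group means of the floored log2 values. Much of Edn1 lies at or under the dashed floor of 23.3, and the Agt groups overlap between 20.1 and 92.2.

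Ece1, the endothelin-converting enzyme, had 2 probe sets, of which D29683_at gave the higher signal. The left gel arrays had 971.2, 1105.1 and 1011.6 at day 1, and the left tPA arrays 1346, 2079.2 and 1149.2. All 3 tPA arrays of day 1 lay above the gel arrays. At day 4 the left gel arrays had 1268.2, 1103.5 and 1486.4, and the left tPA arrays 737.9, 849.8 and 687.3. Here all tPA arrays lay below the gel arrays, so the order of the treatments was the opposite at the 2 days.

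Sham arteries gave 999.5, 990.9, 876.1 and 1120.9 for Ece1 at day 1, and between 1189.2 and 1322 with a median of 1259.15 at day 4. Left tPA arteries were therefore above every sham array at day 1 and below every sham array at day 4. The fall at day 4 passed the test in limma, with a log2 difference of -0.74 (SE 0.20, adjusted p = 0.0271), or 1.67-fold lower with a 95% interval of 1.25 to 2.23. 1 of 6 member probe sets had groups without overlap in this comparison, beside 7.89% of all probe sets. The call was lost without left tPA day 4 replicate 2 (-0.83, adjusted p = 0.0805 in limma) or replicate 3 (-0.67, adjusted p = 0.242), and when only the 2 groups compared were fitted (adjusted p = 0.117). It was kept without the 4 arrays that stood apart (-0.72, SE 0.18, adjusted p = 0.00567). Over the left tPA day 4 and sham day 4 arrays the actin 3′ to 5′ ratio overlapped, at 11.02 to 16.02 and 11.83 to 23.69. Other cell types moved in the same comparison. Of 7 macrophage genes 4 were higher (median difference 1.62), with sums of 5023 to 12127 in left tPA day 4 beside 2056 to 4602 in sham day 4. Of 10 contractile smooth muscle genes 2 were lower (median -0.66), with sums of 20952 to 36845 beside 33774 to 54028, and 1 of 8 adipocyte genes was lower, with sums of 5903 to 6620 beside 4120 to 6718. Of 7 tested endothelial genes 0 were higher and 1, Pecam1, was lower (-0.85, SE 0.24, adjusted p = 0.0347), their summed intensity was 1638 to 2626 in left tPA day 4 and 1712 to 2647 in sham day 4, and no marker of these 4 lists was at the floor on all arrays of either group. The part of these cell types in the Ece1 difference was not tested.

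The rise of Ece1 in left tPA over sham arteries at day 1 did not pass, at 0.57 on the log2 scale (SE 0.22, adjusted p = 0.122 in limma). 3 of 6 member probe sets were without overlap there, beside 20.6% of all probe sets. Without the 4 arrays the difference was 0.32 (adjusted p = 0.3), since the array labelled left tPA day 1 replicate 2 held the highest Ece1 value of all 40.

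Against plain gel, tPA arteries differed in Ece1 by 0.52 at day 1 (SE 0.24, adjusted p = 0.336 in limma) and by -0.76 at day 4 (SE 0.24, adjusted p = 0.234), and neither passed. 3 of 6 member probe sets were without overlap at day 1, beside 17.8% of all, and 2 of 6 at day 4, beside 13.4% of all. The test of the difference between the days gave -1.28 (SE 0.33, 95% interval -1.96 to -0.60, adjusted p = 0.0757), where 0.0858% of all probe sets passed. With array weights it was -1.17 (adjusted p = 0.0122 in limma). Without the 4 arrays it was -1.02 (adjusted p = 0.0564), and the day 1 difference was 0.28 (adjusted p = 0.564).

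The right arteries of tPA rats had the highest Ece1 means at day 1, with 1843.8, 1052.3 and 2078.6, where the lowest is the array labelled replicate 2. At day 4 they had 1917.6, 1009.7 and 1374.8, all above the left tPA arrays. The highest of these is the array labelled replicate 1, which stood apart. The left minus right difference at day 4 was -0.88 (SE 0.24, adjusted p = 0.21 in limma), and -0.62 without the 4 arrays (SE 0.22, adjusted p = 0.109). It had groups without overlap, as 1 of 6 member probe sets beside 6.71% of all. Right gel arteries had 1031.1, 1016.6 and 1293.5 at day 1 and 1425.6, 1280.4 and 1309.1 at day 4, close to the left gel arrays of the same day. The gel injury itself moved Ece1 by 0.05 at day 1 (95% interval -0.40 to 0.50) and by 0.02 at day 4 (95% interval -0.40 to 0.43).

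Intact arteries lay between 901.9 and 1309.6 for Ece1. In descending order of group means on the log2 scale came right tPA day 1 at 10.64, left tPA day 1 at 10.53, right tPA day 4 at 10.44, right gel day 4 at 10.38, left gel day 4 at 10.32 and sham day 4 at 10.30. Intact arteries followed at 10.14, then right gel day 1 at 10.11, left gel day 1 at 10.01, sham day 1 at 9.96 and left tPA day 4 at 9.56. Of these neighbours, the last pair alone had no overlap in intensity.

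The second Ece1 probe set, rc_AA956930_s_at, was dimmer, at 28.6 to 181.3, and its correlation with the first over the 40 arrays was 0.42. Its left tPA day 4 arrays, at 62.5, 112.4 and 109.9, did not fall below the sham arrays, at 28.6 to 99.2, and the difference was 0.34 (SE 0.38, adjusted p = 0.692 in limma), or 0.61 without the 4 arrays (adjusted p = 0.403). The 2 probe sets thus disagree on the day 4 fall against sham. At day 1 its left tPA arrays, at 97.8, 129.3 and 126.7, lay above all sham arrays, at 35.7 to 74.2, by 1.18 (SE 0.41, adjusted p = 0.0898). Against gel it differed by 0.60 at day 1 and by -0.35 at day 4, and its difference between the days was -0.96 (SE 0.63, adjusted p = 0.545 in limma). Without the 4 arrays the day 4 difference was -0.08 (adjusted p = 0.997 in limma) and the difference between the days -0.61 (SE 0.71, adjusted p = 0.764).

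Ace, which converts angiotensin I to angiotensin II and also degrades bradykinin, had intensities of 70.2 to 527.3 on its probe set U03734_at. Left gel arteries at day 1 gave 70.2, 128.3 and 101.9, the lowest group mean of the 11 at 6.60 ± 0.44 (SD, n = 3) on the log2 scale. Sham arteries at day 1 gave 139.2, 202.9, 146.2 and 150.3, and right gel arteries 199.3, 207.6 and 234. The injured gel arteries thus lay below every array of the other 2 groups. The differences were -0.70 against sham (SE 0.40, adjusted p = 0.439 in limma) and -1.13 against the right artery (SE 0.43, adjusted p = 0.195), and neither passed. In each of these comparisons 1 of 6 member probe sets was without overlap, beside 22.4% and 21.6% of all probe sets. With array weights the adjusted p was 0.0152 and 0.0288.

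In the same left gel day 1 arrays the 10 endothelial marker genes on the array had a summed intensity of 1332 to 1831, beside 1610 to 2822 in sham day 1 and 1665 to 2394 in right gel day 1. Of the 7 tested, 0 passed in limma for left gel against sham at day 1, with 1 (Selp) at an unadjusted p below 0.05, and no marker was at the floor on all arrays of these 3 groups. 6 of 12 skeletal muscle genes were higher in the same comparison, with summed intensities of 25212 to 46577 beside 3730 to 5078. The part of either cell type in the Ace values was not tested.

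At day 4, Ace was highest in sham arteries, at 184.3 to 467.4 with a median of 331.1. Left gel arteries gave 175.8, 126.3 and 199.6, and left tPA arteries gave 209.7, 229.2 and 114.6, and each group overlapped with sham only at the lower end of the sham arrays. Left gel differed from sham by -0.89 (SE 0.37, 95% interval -1.64 to -0.14, adjusted p = 0.0912 in limma). This difference passed on arrays scaled to 1 median (-0.99, adjusted p = 0.0442), after quantile normalization (-1.07, adjusted p = 0.0311), with array weights (-0.79, adjusted p = 0.0365) and without the 4 tPA arrays (-0.89, adjusted p = 0.041). The 4 tPA arrays are not in this comparison, and without them its calls over all probe sets rose from 1117 to 1310. Left tPA differed from sham by -0.79 (SE 0.37, adjusted p = 0.204 in limma), and by -0.91 without the 4 arrays (adjusted p = 0.0846). Against left gel it differed by 0.10 (adjusted p = 0.99), and by -0.02 without them (adjusted p = 1). In left gel against sham at day 4, 4 of 10 contractile smooth muscle genes were lower and 6 of 7 macrophage genes higher. Their part in the Ace difference was not tested.

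Right tPA arteries varied most in Ace, with 298.2, 102.8 and 527.3 at day 1, where the lowest is again the array labelled replicate 2. Left tPA arteries at day 1 gave 99.2, 275.2 and 231.2, which exceeded left gel by 0.93 (SE 0.43, adjusted p = 0.341 in limma), with overlap, or by 0.64 without the 4 arrays (adjusted p = 0.497). In sham arteries Ace was higher at day 4 than at day 1 by 0.95 (SE 0.34, adjusted p = 0.0895), and this passed without the 4 tPA arrays (SE 0.29, adjusted p = 0.0412), which are not in this comparison. Intact arteries lay between, at 161.9 to 306.9. Scaling to 1 median moved the median of all probe sets between the sham days by -0.27. Of the neighbours in the order of groups, only sham day 1 and left gel day 1, the lowest pair, had no overlap.

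**Figure D3:**
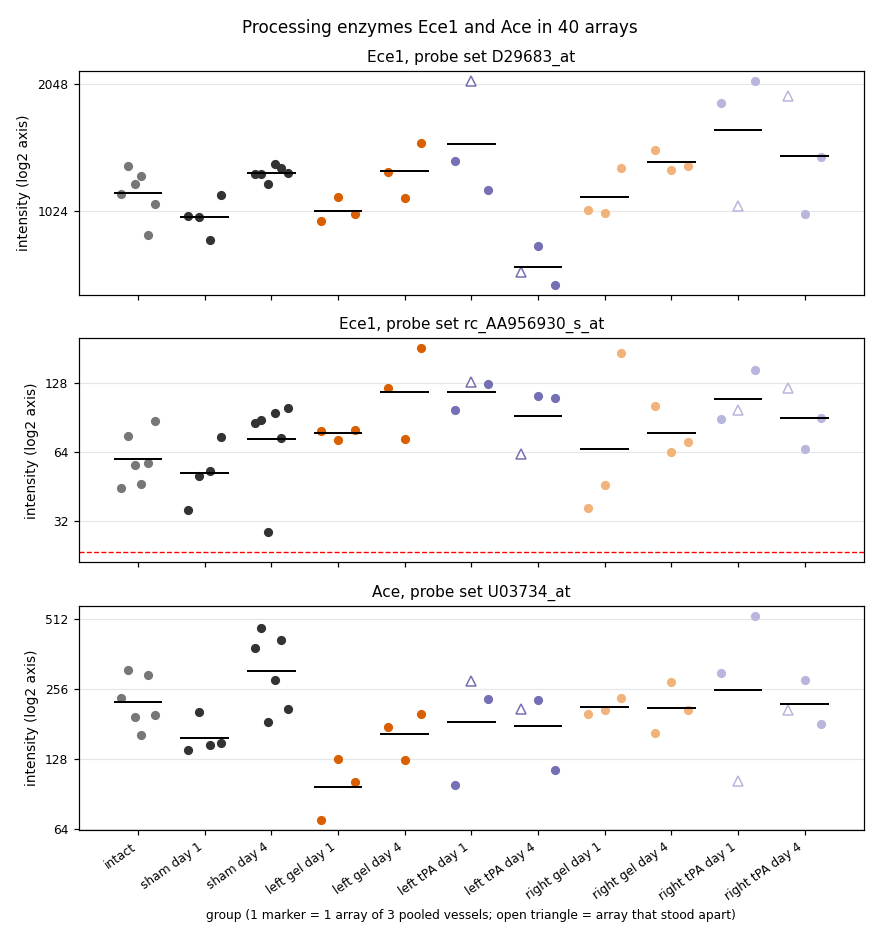
Deposited intensity of both Ece1 probe sets and of Ace on a log2 axis in the 11 groups, drawn with 1 marker for each array, open triangles for the 4 tPA arrays that stood apart, black bars for means of the log2 values and a dashed line for the floor of 23.3 where it is in range. In the top panel the left tPA day 4 arrays sit between 687.3 and 849.8, under all sham and left gel arrays of that day, and in the bottom panel left gel day 1 is the lowest group at 70.2 to 128.3.

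Agtr1a, the angiotensin type 1a receptor and the only receptor gene of the members measured here, was brightest on probe set M86912exon_g_at. Sham day 4 arteries had the lowest values as a group, between 402.3 and 736.5 with a median of 500.7. Left gel day 4 arteries had 1631.1, 1489.8 and 2186.2, the highest group mean, and all 3 exceeded every sham array. The log2 difference was 1.76 (SE 0.43, adjusted p = 0.00328 in limma), or 3.39-fold with a 95% interval of 1.85 to 6.23. It passed in 9 of 9 refits that each left out 1 array of these groups, with differences of 1.60 to 1.88 and adjusted p of at most 0.0286. This was the only member probe set without overlap in this comparison, beside 23.8% of all probe sets.

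Right gel day 4 arteries, which were not injured, gave 1626.9, 972.5 and 1877.7 for Agtr1a. These too lay above every sham array, by 1.48 on the log2 scale (SE 0.43, adjusted p = 0.0257 in limma), or 2.79-fold with a 95% interval of 1.52 to 5.13. This was again the only member probe set without overlap, beside 16% of all. The call was lost without right gel day 4 replicate 1 (1.39, adjusted p = 0.101), replicate 3 (1.29, adjusted p = 0.182) or sham day 4 replicate 2 (1.41, adjusted p = 0.0507). Left and right gel arteries overlapped at day 4 and differed by 0.28 (95% interval -0.73 to 1.29, adjusted p = 0.833 in limma). Both comparisons share the sham arrays, which were themselves low: sham day 1 arteries had 992, 1251.5, 1519.9 and 1118.1 and intact arteries 642.5 to 1141.4. Sham day 4 was below sham day 1 in all arrays, by -1.23 (SE 0.39, adjusted p = 0.0573), with 2 of 6 member probe sets without overlap beside 11.1% of all, and below intact by -0.80 (SE 0.35, adjusted p = 0.411). The fall between the sham days passed on arrays scaled to 1 median (-1.50, adjusted p = 0.0203 in limma), with array weights (-1.15, adjusted p = 0.0114), with only these groups fitted (adjusted p = 0.0102) and without the 4 tPA arrays (adjusted p = 0.00822). The 4 tPA arrays are not in this comparison.

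At day 1, Agtr1a was at 683.7, 654.3 and 1576.1 in left gel arteries, 2 of them below every sham array and 1 above. The injury difference was -0.44 at day 1 (SE 0.47, adjusted p = 0.779 in limma). Its change from day 1 to day 4 was 2.20 (SE 0.63, 95% interval 0.91 to 3.49, adjusted p = 0.0555), where 2.42% of all probe sets passed. The test of this change passed without left gel day 1 replicate 3 (2.61, adjusted p = 0.0289), without sham day 4 replicate 6 (2.30, adjusted p = 0.0479) and without the 4 tPA arrays (2.20, adjusted p = 0.00262). None of those 4 arrays is in this comparison, and without them its calls over all probe sets rose from 141 to 295.

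Left tPA arteries at day 1 gave 427.2, 2675.8 and 396.2, the widest spread of any group. The highest value of all 40 arrays is that of the array labelled left tPA day 1 replicate 2, which stood apart, and the other 2 lie below every sham and left gel array of that day. The lowest, replicate 3, had an actin 3′ to 5′ ratio of 2.8, beside 16.26 to 21.11 in sham day 1. Every value given without replicate 2 rests on this array and 1 other for left tPA at day 1. Against sham the difference was -0.65 (SE 0.47, adjusted p = 0.425 in limma), and without replicate 2 it was -1.55 (adjusted p = 0.0176). Against left gel it was -0.21 (SE 0.50, adjusted p = 0.885), and without the 4 arrays -1.11 (adjusted p = 0.157). Right tPA arteries at day 1 gave 1095.8, 1667.9 and 1314.8. The left minus right difference was -0.80 (adjusted p = 0.668 in limma), -1.70 without left tPA day 1 replicate 2 (adjusted p = 0.0336), and -1.54 without all 4 arrays (adjusted p = 0.0267).

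At day 4, left tPA arteries gave 718.4, 1295.3 and 1512.6 for Agtr1a, where the lowest is the array labelled replicate 1, which stood apart and lay within the sham range. The difference from sham was 1.12 (SE 0.43, adjusted p = 0.111 in limma), and 1.44 without that array (adjusted p = 0.0437). The array was set apart by probe sets that differ between left gel and sham at day 4, as this one does. The larger difference is therefore no separate evidence of a rise. Against left gel the difference was -0.64 (SE 0.50, 95% interval -1.65 to 0.37, adjusted p = 0.845 in limma), and -0.32 without the 4 arrays (SE 0.39, adjusted p = 0.922). Right tPA arteries gave 406.4, 656.9 and 1670.9 at day 4, and right gel arteries gave 672.9, 1421.2 and 1456.7 at day 1. By group mean on the log2 scale the order ran from left gel day 4 at 10.77 and right gel day 4 at 10.49 down to right tPA day 4 at 9.58 and sham day 4 at 9.01, and each neighbouring pair overlapped.

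The other Agtr1a probe sets did not all follow the brightest. M86912exon_at, of the same source sequence by its name, correlated with it at 0.61 over the 40 arrays. Its left gel day 4 arrays, at 499.2, 891 and 648.7, overlapped with sham, at 131.9 to 529.3, and the difference was 1.03 (SE 0.42, adjusted p = 0.0842 in limma). It passed with array weights (0.85, adjusted p = 0.0316) and without the 4 tPA arrays (1.03, adjusted p = 0.0422), which are not in this comparison. The right gel difference was 0.79 (SE 0.42, adjusted p = 0.263).

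The dimmest Agtr1a probe set, M74054_s_at, was at the floor in 25 of 40 arrays and was not tested, yet it was measurable in gel arteries at day 4. Left gel day 4 arrays gave 71.8, 48.4 and 91.5 and right gel day 4 arrays gave 34.8, 70.3 and 67.4. All 6 sham day 4 arrays were under the floor, at 5.2 to 16.7, as were all 4 sham day 1 arrays, at 5.5 to 19. Without the filter limma gave 1.55 for left gel against sham (adjusted p = 0.00104), at least 2.93-fold since sham was set to the floor, and 1.23 for right gel (adjusted p = 0.0147), at least 2.35-fold. In left gel arteries it was higher at day 4 than at day 1 by 1.36 (adjusted p = 0.0405), where the day 1 arrays gave 16.8, 18.6 and 34.8. All 3 left tPA day 1 arrays and all 3 right tPA day 4 arrays were under the floor. Right tPA day 1 arrays gave 111.9, 43.5 and 12, of which the first is the highest value of all 40 arrays. Left tPA day 4 arrays gave 7.6, 61 and 31.8.

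X62295cds_s_at had a correlation of -0.10 with the brightest Agtr1a probe set over the 40 arrays. In sham arteries it was higher at day 4, at 215.4 to 445.9 with a median of 387.3, than at day 1, at 229.2, 140.9, 165.8 and 244.6. The groups overlapped through 1 sham day 4 array, replicate 3, and the difference was 0.93 (SE 0.21, adjusted p = 0.0109 in limma). This is opposite in sign to the -1.23 of the brightest probe set in the same arrays. On arrays scaled to 1 median, which moved the median of all probe sets by -0.27, the difference was 0.66 (adjusted p = 0.0504). The call was also lost without sham day 1 replicate 2 (0.79, adjusted p = 0.0735) or replicate 3 (0.86, adjusted p = 0.0631).

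Left gel arteries rose on X62295cds_s_at as well, from 189.2, 264.6 and 229.9 at day 1 to 419.3, 457.8 and 475.7 at day 4, with no overlap, beside 32.5% of all probe sets without overlap. The difference was 1.00 (SE 0.27, adjusted p = 0.0324 in limma). Every single array but left gel day 1 replicate 2 ended the call when left out, at differences of 0.87 to 1.05 and adjusted p of 0.0847 to 0.163. So did scaling to 1 median, which moved the median of all probe sets by -0.30 (0.70, adjusted p = 0.145), and quantile normalization (0.79, adjusted p = 0.115). Against sham at the same day, left gel differed by 0.25 at day 1 and by 0.31 at day 4, and neither passed (adjusted p = 0.764 and 0.399).

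On the same probe set left tPA day 1 arrays, at 321.6, 377.5 and 293.2, lay above all sham and left gel arrays of that day. The difference from sham was 0.79 (SE 0.25, adjusted p = 0.0635 in limma) and passed without sham day 1 replicate 4 (0.91, adjusted p = 0.0481). Without the 4 tPA arrays it was 0.69 (adjusted p = 0.135). Scaling to 1 median moved the median of all probe sets in this comparison by -0.29. At day 4 left tPA arrays, at 338.9, 403.2 and 245.9, lay below all left gel arrays. Neither difference from gel passed, at 0.54 (adjusted p = 0.379; 0.44 without the 4 arrays, adjusted p = 0.541) and -0.48 (adjusted p = 0.702).

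Other differences of X62295cds_s_at had groups without overlap and did not pass. Right gel day 1 arrays, at 389.2, 312.6 and 259.3, lay above all sham day 1 arrays by 0.73 (SE 0.25, adjusted p = 0.213 in limma), as 1 of 6 member probe sets without overlap beside 13.6% of all. Sham day 1 arrays lay below all intact arrays, at 247.1 to 390.2, by -0.60 (SE 0.21, adjusted p = 0.238), again 1 of 6 beside 5.42% of all. At day 4 right gel arrays, at 198.4, 302.5 and 367, lay below all left gel arrays, a left minus right difference of 0.68 (SE 0.27, adjusted p = 0.147), the only member probe set without overlap beside 30.4% of all. These right gel arrays overlapped with sham day 4 and differed from it by -0.37 (SE 0.23, adjusted p = 0.355 in limma). That is opposite in sign to the right gel difference of the brightest Agtr1a probe set.

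Agtr1a has a close relative, Agtr1b, with a nearly identical product, and signal of the 2 genes may not be separated by these probe sets. Agtr1b was measured by 4 probe sets of a family type. Its brightest, S61896_f_at, gave 31.4 to 152.8 in left gel day 4 and 45.2 to 297 in sham day 4, and limma called it in 0 of 18 comparisons, with 0 at an unadjusted p below 0.05. Its other tested probe set, M90065cds_f_at, had log2 means of 5.60 in sham day 1 and 6.71 in sham day 4. In right gel day 4 its mean was 5.47, below sham, and both orders are those of X62295cds_s_at of Agtr1a. In left gel day 4 it was 6.47, also below sham, where X62295cds_s_at was above. How much of the Agtr1a signal comes from Agtr1b was not tested.

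Other cell types moved with Agtr1a at day 4. In left gel against sham, 6 of 7 macrophage genes were higher, with summed intensities of 14567 to 16924 beside 2056 to 4602, and 4 of 10 contractile genes were lower, with sums of 21775 to 24898 beside 33774 to 54028. Adipocyte genes had 2 of 8 higher and 1 lower there, with sums of 9961 to 13885 beside 4120 to 6718, and 2 of 10 nerve and Schwann cell genes were higher, with sums of 5524 to 9124 beside 5444 to 7529. In right gel against sham, 7 of 10 nerve and Schwann cell genes were higher and 1 lower, with sums of 11452 to 24836 beside 5444 to 7529. There 4 of 8 adipocyte genes were also higher, with sums of 8539 to 17456 beside 4120 to 6718, and 2 of 7 macrophage genes, with sums of 6978 to 11387. Contractile genes had 1 of 10 lower there (median difference -0.86), with sums of 22469 to 30160 that did not overlap with sham. Endothelial genes had 1 of 7 higher in each of these comparisons, and skeletal muscle genes had 1 of 12 higher in right gel. No marker of the macrophage, contractile, nerve and adipocyte lists was at the floor on all arrays of these 3 groups. Of the other lists, 1 endothelial marker was at the floor on all right gel day 4 arrays, and 1 skeletal muscle marker on all left gel day 4 arrays. The part of these cell types in the Agtr1a differences was not tested. The actin 3′ to 5′ ratio of right gel day 4, at 11.68 to 13.61, overlapped with that of sham day 4, while that of left gel day 4 did not.

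**Figure D4:**
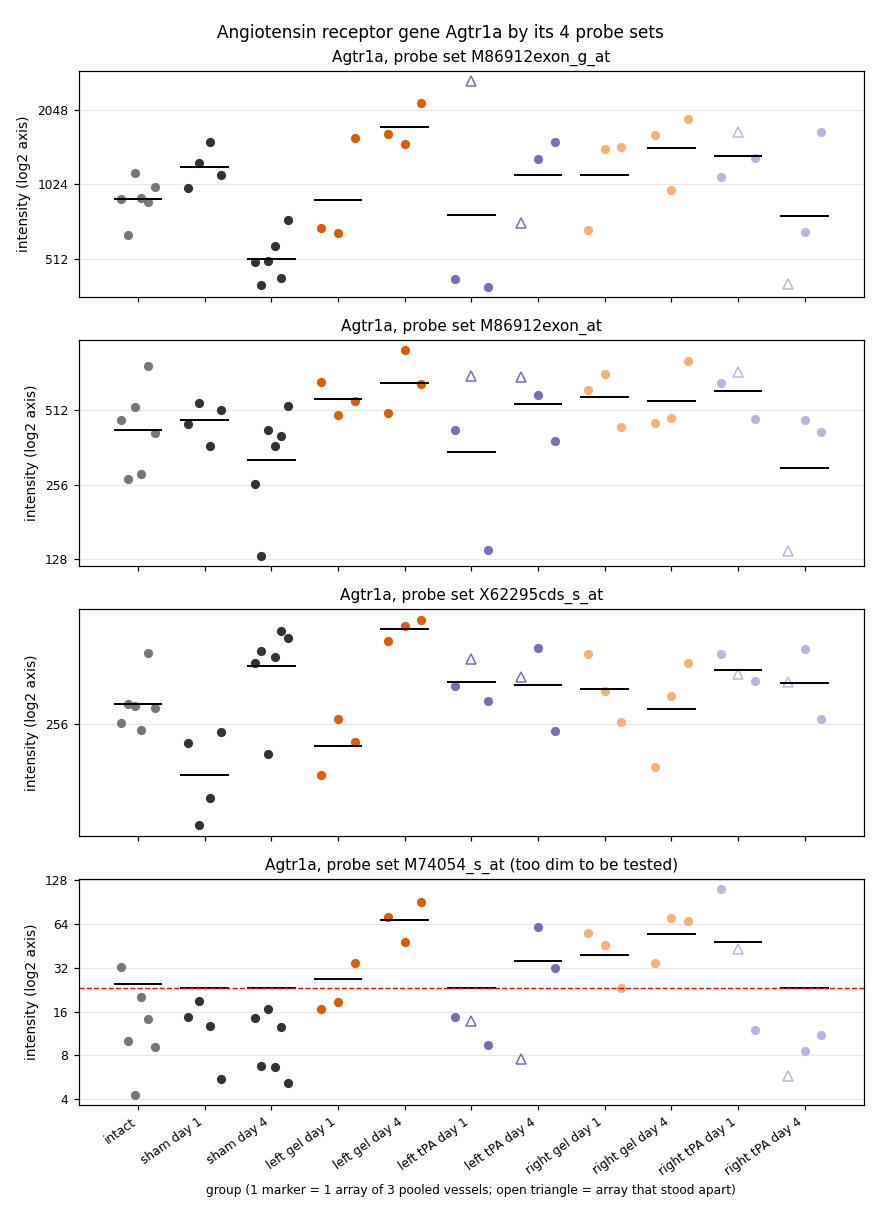
Deposited intensity of the 4 Agtr1a probe sets on log2 axes in the 11 groups, with 1 marker for each array, open triangles for the 4 tPA arrays that stood apart, black bars for means of the floored log2 values and a dashed line for the floor of 23.3. In the M86912exon_g_at and M74054_s_at panels every left gel and right gel day 4 array lies above every sham day 4 array, while in the X62295cds_s_at panel sham day 4 is high (215.4 to 445.9).

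The genes whose log2 levels followed each member most closely over the 40 arrays are given as a description, since all arrays share the effects of injury and day. They were taken for the probe set of each member with the highest mean. For Agtr1a they were Cxcl13, a chemokine (Pearson correlation 0.80), Pdgfra, a growth factor receptor of fibroblasts (0.79), and Il33, an alarmin cytokine (0.74). For Ece1 they were Egfl7, a secreted endothelial protein (0.64), Acaa1b, a peroxisomal thiolase (0.63), and Nr1h3, the liver X receptor alpha (0.61). For Ace they were Selenow (0.77), Npr1, a natriuretic peptide receptor (0.72), and Cby1 (0.70). Agt and Edn1, near the floor, were nearest to Sh2b3 (0.82), Ghrhr (0.80) and Afdn (0.77), and to Hal (0.59), Casq2 (0.58) and Hsp90ab1 (0.57). Among the members themselves Agt and Ace correlated at 0.56. Ace correlated at 0.42 with D29683_at and at 0.13 with the second probe set of Ece1, and at -0.24 with the brightest probe set and 0.44 with X62295cds_s_at of Agtr1a. Agt correlated at -0.16 and 0.50 with the same Agtr1a probe sets.

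Of 29 other genes of the 2 systems and their neighbours (ligands, peptidases, kinin and aldosterone genes), 20 were on the array and 10 were tested. At day 4, left gel against sham had 1 of 10 higher and 1 lower, beside 19.2% of all probe sets passing. Right gel against sham had 1 of 10 higher, beside 8.82% of all. At day 1, left tPA against sham had 1 of 10 higher and 1 lower, beside 4.43% of all. The list's median difference in left gel against sham at day 4 was -0.01, beside 0.02 over all tested probe sets. The angiotensin type 2 receptor gene Agtr2 was at the floor in 38 and 37 of 40 arrays on its 2 probe sets, Mas1 in 30, and Enpep, the aminopeptidase that makes angiotensin III, in 38.

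Anpep, an aminopeptidase that trims angiotensin III, changed most often. Its brightest probe set, M25073_at, had 1134.4 to 1194.7 in left gel day 4, 741.7 to 840.9 in right gel day 4 and 283.2 to 579.6 in sham day 4, with no overlap among these groups. The rise over sham was 1.62 in left gel (SE 0.28, adjusted p = 0.000132 in limma) and 1.04 in right gel (SE 0.28, adjusted p = 0.0149). Left gel also rose from day 1, by 1.96 (SE 0.32, adjusted p = 0.000417), and the injury difference changed between the days by 2.58 (SE 0.41, adjusted p = 0.000389). Its probe set AF039891_s_at went the other way at day 4, with 309.4 to 387.8 in left gel and 410 to 657.2 in sham, and was not called. A further Anpep probe set, AF039890mRNA_s_at, also had a lower mean in left gel, at 47.3 to 106.4 against 58 to 213.7 in sham.

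Nr3c2, the mineralocorticoid receptor gene for aldosterone, was lower in left tPA than in sham arteries at day 1, at 82.9 to 200.5 against 424.5 to 716.3 (-2.07, SE 0.58, adjusted p = 0.0329 in limma). It was also lower in left gel than in sham at day 4, at 99.8 to 146.2 against 193.5 to 552.9 (-1.50, SE 0.53, adjusted p = 0.0446). These values are of its brightest probe set, M36074_g_at. Its probe set M36074_at had lower means than sham in both cases, by less and with overlap. It gave 112.5 to 197.4 in left tPA day 1 against 170.3 to 227.7 in sham, and 91 to 158.4 in left gel day 4 against 154 to 350.6. Bdkrb1, the inducible bradykinin receptor gene, was higher in left tPA than in sham at day 1, at 189.8 to 240.9 against 18.3 to 133.6 (2.01, SE 0.56, adjusted p = 0.0337). Sham day 1 had the lowest group mean of this gene. Uninjured arteries covered the left tPA values, at 73.7 to 294.7 in intact and 160.7 to 322.4 in right gel day 1. In sham arteries Bdkrb1 rose from day 1 to 182.5 to 371.3 at day 4 (2.26, SE 0.47, adjusted p = 0.00561).

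Of 37 genes that carry signals of Gq-coupled receptors, 26 were on the array and 22 were tested. In left gel against sham at day 4, 5 of 22 were higher, 4 lower and 13 did not pass, beside 19.2% of all probe sets passing, and the list's median difference was -0.11, beside 0.02 over all tested probe sets. Prkcb, a protein kinase C gene, rose by 2.97 (SE 0.42, adjusted p = 1.71e-05 in limma), from 116.5 to 211.1 in sham to 1192 to 1719.2. Its probe set E01789cds_s_at gave 74.4 to 137.6 in left gel and 36.5 to 156.9 in sham, a difference of 0.17 that did not pass. Plcb4, a phospholipase C gene, fell by 2.20 (adjusted p = 0.000386), from 598.7 to 1720.7 in sham to 190 to 275. Itpr1, the inositol trisphosphate receptor gene of calcium stores, fell by 2.24 (adjusted p = 0.00126), and Jak2, a kinase that also acts below the angiotensin receptor, rose by 1.17 (adjusted p = 0.00163 in limma).

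In right gel against sham at day 4, 2 of 22 of these genes were higher, Prkcb by 2.20 (adjusted p = 0.000669 in limma) and Plcb1 by 1.18 (adjusted p = 0.0184), beside 8.82% of all probe sets passing. In left tPA against sham 2 of 22 were lower at day 1, Itpr1 by -1.90 (adjusted p = 0.0337) and Plcb4 by -1.57 (adjusted p = 0.0429), and 1 was higher at day 4, Prkcb by 2.00 (adjusted p = 0.0101). The shares over all probe sets were 4.43% at day 1 and 5.87% at day 4. The Prkcb probe set E01789cds_s_at did not follow at day 4. It gave 46.4 to 139.3 in right gel and 49.7 to 93.1 in left tPA, beside 36.5 to 156.9 in sham. Between left gel and right gel at day 4, Jak2 was higher in the injured artery by 1.35 (adjusted p = 0.00784 in limma), while Plcb4 was lower by -2.25 (adjusted p = 0.00653) and Plcb1 by -1.32 (adjusted p = 0.0357). Summed macrophage intensities in the day 4 groups were 2056 to 4602 in sham, 14567 to 16924 in left gel, 6978 to 11387 in right gel and 5023 to 12127 in left tPA, and their part in the Prkcb differences was not tested.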

How the data were processed

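Total RNA of carotid arteries was measured on 40 arrays in 11 groups. The authors deposited 1 table of linear signal intensities, 1 value for each of 8799 probe sets and array; the values show a scaling of every array to a common trimmed mean (2% trimmed at each end), and no summary algorithm is named in the sources used here. The platform annotation gave 7006 probe sets 1 gene symbol, 308 several and 1426 none, and 59 control probe sets were left out. The members and gene lists were chosen with earlier results of these data known.

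Intensities were floored at their 20th percentile (23.3), which held 6.57% to 25.2% of the probe sets of an array, and log2 values were taken; 33.3% of probe sets with the lowest means were left out, and 5827 were tested. A linear model over all 40 arrays with 1 mean per group was fitted with limma 3.58.1 in R 4.3.3 (lmFit, eBayes), and p-values were adjusted over all 5827 probe sets (Benjamini-Hochberg, threshold 0.05) in each of 18 comparisons. The code was tested on simulated data first. For the lists, the probe set with the highest mean of each gene was used, and at most 4 genes with the smallest p below the threshold were named per comparison; the 3 genes most alike to each member were those with the highest Pearson correlation over 40 arrays. Differences are on the floored log2 scale and understate changes of dim probe sets, and the number of arrays limits the precision. Alternatives were no filter, 50% left out, a floor at the 40th percentile, scaling to 1 median, quantile normalization, array weights, the replicate number as a block, a fit of only the groups compared, each array left out and, chosen after the data were seen, the 4 tPA arrays left out and the block in a fit of only the groups compared. Same-numbered arrays deviated together (every pair above 0.1) in 1 of 16 comparisons, right gel against sham at day 1, where the block altered no member call.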

Additional observations from a re-analysis of the deposited data

Results flagged for a closer look

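In 25 groups of 4 to 6 arrays the gap of the highest or lowest array to its neighbour was set against the range of its group, and 5 passed Dixon's limit, which chance passes in about 1 in 20 groups. For Edn1 in sham day 1, replicate 4 (49.2) was the only array above the floor, so that the gap was the whole range (1). For M74054_s_at of Agtr1a in intact arteries, replicate 1 (32.6) was likewise the only one above the floor (1). In such groups the flooring alone passes the limit, and the rate of 1 in 20 does not hold. For the second Ece1 probe set in sham day 4, replicate 3 (28.6) lay below the other arrays with a gap of 0.76 of the range. The same array was low on X62295cds_s_at of Agtr1a (215.4, a gap of 0.739). In intact arteries replicate 5 was high on X62295cds_s_at (390.2, a gap of 0.659).

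In 8 cases every array of the first group lay above the mean of the second at 1 of the days and below it at the other. The share of all probe sets with such a change is not given here, so nothing about the members is read from this count. For Ece1 on D29683_at, left tPA against sham changed by -1.31 (log2) between the days, from 0.57 to -0.74, and this change was not tested. Against left gel it changed by -1.28 (adjusted p = 0.0757 in limma). The second Ece1 probe set changed by -0.96 in left tPA against left gel (adjusted p = 0.545 in limma), or by -0.61 without the 4 tPA arrays that stood apart, and X62295cds_s_at of Agtr1a by -1.02 (adjusted p = 0.233). X62295cds_s_at also changed by 1.17 in left gel against right gel, from -0.48 to 0.68, and Ace by -0.96 in right gel against sham, from 0.43 to -0.53, and neither change was tested. Sham against intact changed by 0.35 for Ece1 on D29683_at (adjusted p = 0.254 in limma) and by -1.23 for the brightest Agtr1a probe set (adjusted p = 0.0573), which are the differences of sham between the days since the intact arrays are shared.

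The Agtr1a probe set that was too dim for the test, M74054_s_at, was above all sham arrays of its day in 3 groups. The lowest array was at 23.4 in right gel day 1, where sham reached 19 (adjusted p = 0.275 in limma with no filter). It was at 48.4 in left gel day 4 and at 34.8 in right gel day 4, where sham reached 16.7 (adjusted p = 0.00104 and 0.0147).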

How the results depend on the processing

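Counts are of member probe sets past an adjusted p of 0.05 in limma, out of 6 (9 with no filter), and the cause of the changes was not tested. 0 of the called differences reversed in sign. In left gel against sham at day 4 the count was 1, and it became 3 with array weights or without the 4 tPA arrays, and 2 with median scaling, quantile normalization, no filter or the replicate block (M86912exon_at of Agtr1a, 1.29, adjusted p = 0.0482). In left gel at day 4 against day 1 it was 1, and became 2 with array weights or no filter and 0 with median scaling, quantile normalization, only the groups compared or the block in such a fit (0 to 1 with each array left out). In left tPA against sham at day 4 it was 1, and became 2 with array weights or without the 4 arrays and 0 with only the groups compared (Ece1, adjusted p = 0.117), the replicate block (-0.76, adjusted p = 0.0532) or both (-0.71, adjusted p = 0.437; 0 to 2 with each array left out). In sham at day 4 against day 1 it was 1, and became 3 with array weights or without the 4 arrays, 2 with only the groups compared, and 0 when such a fit held the replicate block (0 to 1). In right gel against sham at day 4 it was 1 and became 2 with no filter (0 to 1). In the others it was 0. The injury difference between the days had 1 with array weights, the higher floor, 50% of probe sets left out, only the groups compared, the replicate block, both, or without the 4 arrays (0 to 1). Left tPA against sham at day 1 had 1 with the replicate block or without the 4 arrays (0 to 1), and left against right tPA at day 1 had 1 without the 4 arrays (0 to 1). With array weights left gel against sham at day 1 had 2, and left gel against right gel at day 1, left tPA against left gel at day 4, sham against intact at day 1 and the tPA difference between the days had 1 each. Same-numbered arrays deviated together only in right gel against sham at day 1, groups of different rats, where the count was 0 with and without the block. Whether left and right arrays with the same number share rats is not given by the labels, and the deviations cannot settle it. Over all probe sets, left gel against sham at day 4 had 1117 calls, and 1831 with array weights. Left tPA against sham at day 4 had 342, but 877 without left tPA day 4 replicate 1, 6 without replicate 3 and 16 with only the groups compared. Dim signal limits Edn1 and Agt, and groups of 3 arrays limit all tPA comparisons.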
